A study of Mus musculus with 8 samples.

Results

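Glutamate receptors and the proteins that hold them at the excitatory synapse were examined in the newborn mouse cortex, in pups whose mother's uterine arteries had been clipped before birth and in control pups. The set was a given list of 38 genes: 22 receptor subunits and 16 genes of the postsynaptic scaffold, its kinase and its adhesion molecules. Members were the non-control probes whose gene name in the array files was one of the 38 symbols. All 38 genes were on the array, through 73 probes on 82 spots, out of 55681 probes in all. After a filter that kept a probe when 4 or more of the 8 arrays showed it well above background, each of the 38 genes retained at least 1 probe, among 19752 genes tested.

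The study held 8 one-colour Agilent arrays, 1 per pup, 4 of the control group and 4 of the ischemia group. Every pup was a male of the inbred strain C57BL/6NCr, and total RNA came from the cortex at postnatal day 1.5. In the ischemia group the arteries were closed for 14 min at E16.5, late in gestation. The labels leave out what was done to the control mothers and which pups were littermates, so a p-value measures the spread between these 8 pups. The cortex was profiled whole: fewer cells of a type and less RNA per cell cannot be told apart in such samples.

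At excitatory synapses of the cortex, glutamate opens ionotropic receptors, the AMPA, kainate and NMDA receptors, and activates metabotropic receptors, which signal through G proteins. Under the membrane, MAGUK proteins bind receptor tails and are linked through SAPAP and Shank proteins to Homer and the actin skeleton. CaMKII is the abundant kinase of this structure, and neuroligins span the cleft to presynaptic neurexins. Around birth the cortex is forming its first synapses, and several of these families change their subunits as it matures.

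Each level below is the log2 of a probe's processed signal minus the log2 of the 75th percentile of its array, so that 0 is the brightness of the spot at that percentile. A level belongs to its probe and is compared between arrays, not between genes, because probes differ in how brightly they bind. A difference is the ischemia mean minus the control mean on this log2 scale, with limma's standard error (SE). A p-value called adjusted is Benjamini-Hochberg adjusted over all 19752 genes.

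The 8 arrays lay on 1 slide and were read in 1 scan. The controls filled row 1 and the ischemia arrays row 2, so row and group cannot be told apart. Same-numbered pups of the groups shared a slide column, 1 to 4. The 75th percentiles ranged from 305.6 to 393.3 intensity units, and 47.6% to 51.7% of spots per array were well above background. Neuronal markers were bright on every array, with Stmn2 between 7.88 and 8.04 and the cortical projection neuron gene Neurod2 between 4.97 and 5.38, as the label of cortex requires. Single libraries stood apart in markers of neighbouring tissue: Ttr, the transthyretin of choroid plexus, lay at 6.76 in ischemia pup 4 and between -4.31 and -1.90 on the other 7 arrays. Ptgds, abundant in meninges, lay at 3.04 and 3.48 in ischemia pups 1 and 4 and between -1.16 and -0.01 in the rest. Ischemia pup 3 was also above every control in the collagen gene Col1a1, at -1.65 against -4.51 to -3.58, in Col1a2, at 0.64 against 0.06 to 0.44, and in Ttr, at -1.90 against -3.56 to -3.21. Results are therefore also given without ischemia pups 1 and 4 where that matters, and pup 3 stays in those values.

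No receptor or scaffold gene differed between the groups past the adjusted threshold. With limma 0 of the 38 passed, against 1 of 19752 genes over the array, or 0.00506%. At an unadjusted p under 0.05 there were 2 of 38, the kainate receptor genes Grik3 and Grik5, both higher in ischemia, while over all genes 10.9% reached it. By direction that background was 3.25% higher and 7.64% lower. The same 2 genes were the only members whose groups did not overlap, where 2.27% of all genes lay wholly higher and 4.28% wholly lower. A count of 2 beside these shares is no result about the members as a set.

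The members split evenly, 19 with a higher and 19 with a lower mean in ischemia, whereas 43.0% of all genes had a higher mean. Their median difference was -0.00, beside -0.02 over all genes, and their median absolute difference was 0.0916, beside 0.0886. Single differences ranged from -0.31 for Grin2c to 0.27 for Grik3. Among the 22 receptor genes 10 were higher and 12 lower, with a median of -0.04, and among the other 16 genes 9 were higher and 7 lower, with a median of 0.01. The precision of 4 arrays a group bounded most differences: for 34 of 38 members the 95% interval lay inside a 1.5-fold change in either direction, as it did for 82.2% of all genes. The 4 exceptions were Gria2, Grin2c, Grin2d and Grm7.

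**Figure D1:**
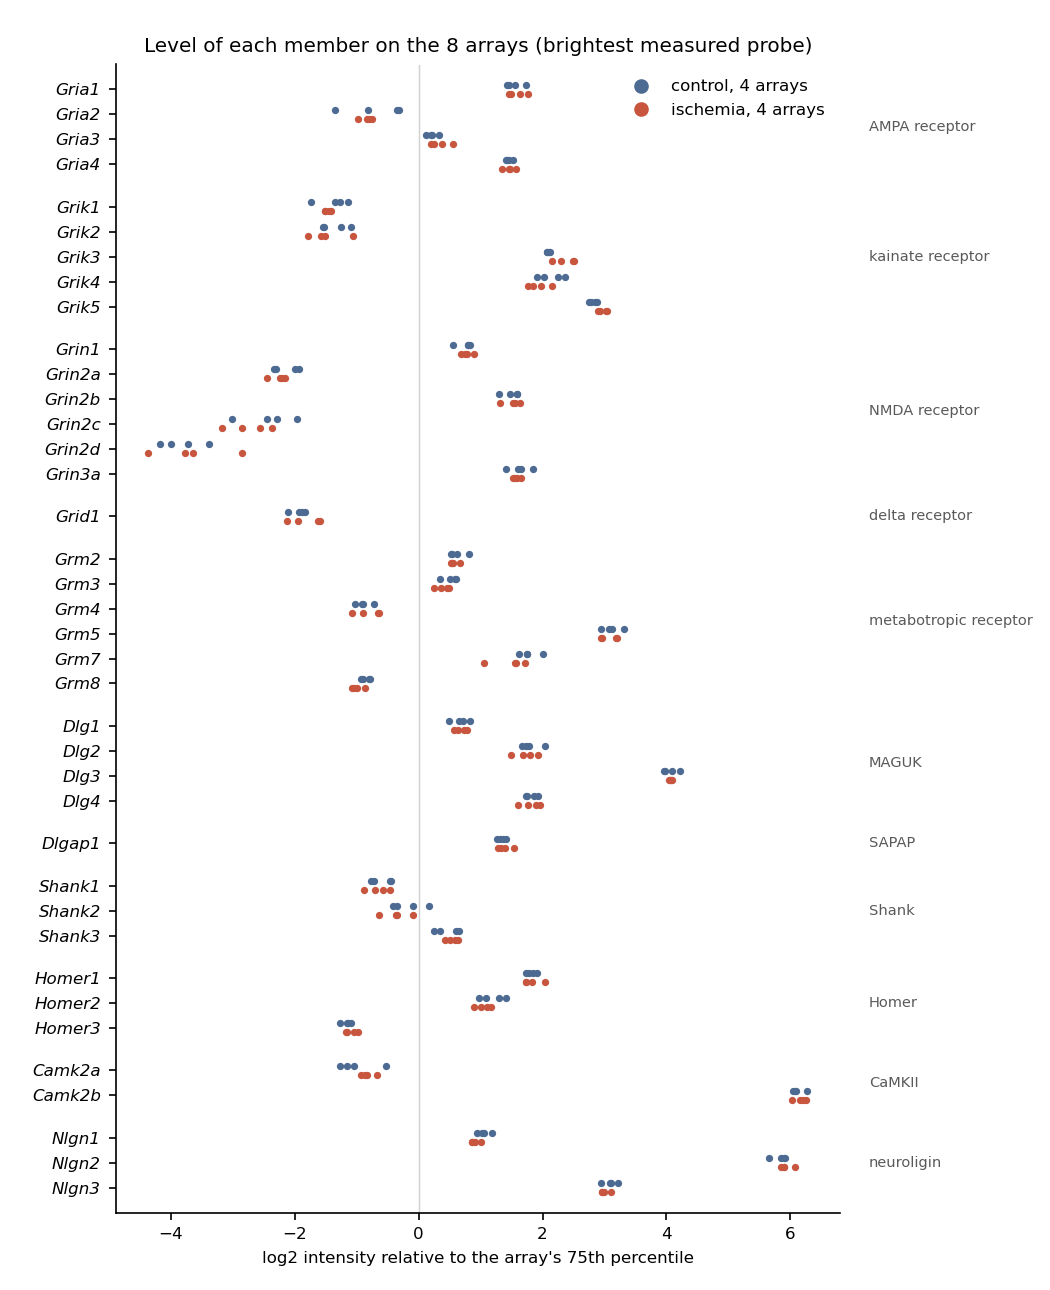
Level of each of the 38 genes on each of the 8 arrays, in log2 intensity relative to the array's 75th percentile, by class, with control and ischemia pups as separate points. The points of the groups intermingle for 36 genes and separate only for Grik3 and Grik5, and the distance between rows reflects the probes and is not a ratio between genes.

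**Figure D2:**
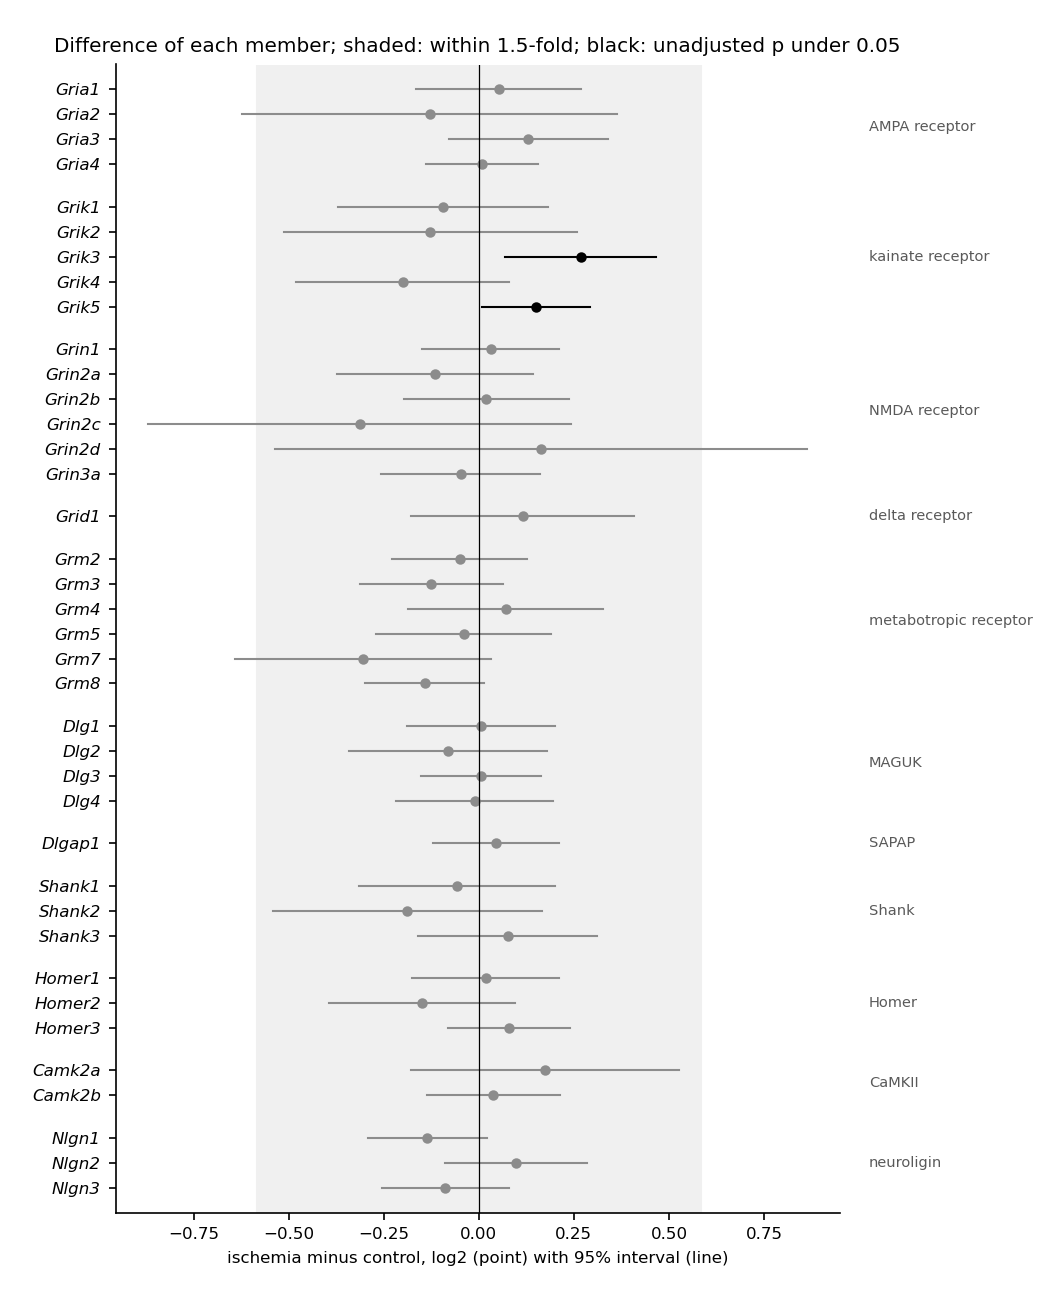
Difference of each gene (ischemia minus control, log2) with limma's 95% interval, 4 arrays a group. The intervals of Grik3 and Grik5 lie above 0, those of the other 36 genes cross it, and Grin2d and Grin2c have the widest.

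**Figure D3:**
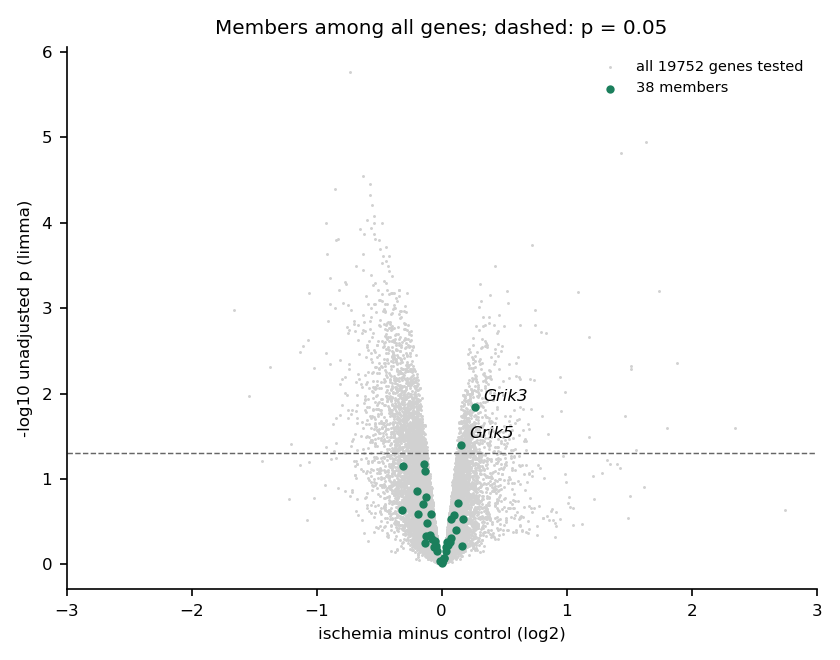
Unadjusted limma p-value, as its negative log10, against the log2 difference for all 19752 genes, with the 38 members marked and a dashed line at the 0.05 level. The members lie within the bulk of the cloud, between -0.31 and 0.27, and 2 of them are above the line.

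AMPA receptors carry most fast excitatory current and are tetramers of the products of Gria1 to Gria4. None of the 4 differed past the threshold, and differences ran from -0.13 to 0.13. Gria3 had the smallest p of the class. It lay at 0.11, 0.22, 0.20 and 0.33 in control pups 1 to 4 and at 0.25, 0.20, 0.56 and 0.38 in ischemia pups 1 to 4. Ischemia pups 3 and 4 were above every control, while pups 1 and 2 lay among them. The difference was 0.13 (SE 0.09, limma adjusted p = 0.661), and a second Gria3 probe gave 0.17. Gria1 differed by 0.05 (SE 0.09) and Gria4 by 0.01 (SE 0.06), both smaller than the spread between pups.

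Gria2 encodes the subunit whose edited form makes the channel impermeable to calcium. Its brighter probe scattered widely in the controls, at -0.35, -0.82, -0.31 and -1.35, and lay between -0.98 and -0.75 in the ischemia pups. Control pups 1 and 3 were the highest and control pup 4 the lowest of all 8, so both extremes were controls. The difference was -0.13 (SE 0.22, limma adjusted p = 0.873). The second Gria2 probe was tighter, between -1.14 and -0.93 in controls and between -1.20 and -0.96 in ischemia, and differed by -0.08.

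Kainate receptors modulate transmitter release and the excitability of young neurons. Grik1 to Grik3 encode the subunits that can form channels alone, and Grik4 and Grik5 the high-affinity subunits that need them. Of the 5 genes 2 were higher in ischemia and 3 lower, and none passed over all genes. The class held both members with an unadjusted p under 0.05, and the probes that gave them are shown here because these values rest on 1 probe each. The first 30 bases of each 60-base probe are given in mm9, 5′ to 3′, with a second Grik3 probe whose signal was dim.
Grik3, chr4:125391317-125391376, plus strand: attattttcctttttaagacactgtgatat
Grik3, dim, chr4:125385533-125385592, plus strand: tcttgtctatggctttctgaagctgtgaag
Grik5, chr7:25794943-25795002, minus strand: ttctctcttttttggggggagaaacctcag
Their place relative to exons and UTRs was not analysed here.

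Grik3 lay at 2.11, 2.12, 2.08 and 2.07 in the 4 controls and at 2.15, 2.51, 2.49 and 2.31 in the 4 ischemia pups. The controls were nearly alike, all 4 ischemia pups lay above them, and ischemia pup 1 was above by the least. The means were 2.09 ± 0.02 (SD, n = 4) and 2.36 ± 0.17 (SD, n = 4). The difference was 0.27 (SE 0.09, limma adjusted p = 0.345), a 1.20-fold level with a 95% interval from 1.05 to 1.38. The direction and an unadjusted p under 0.05 were found in all 20 other settings tried, and the adjusted p ranged from 0.224 to 0.720 over them. Without ischemia pups 1 and 4, those with the highest Ptgds or Ttr, the difference was 0.40 (limma adjusted p = 0.224), a value that rests on pups 2 and 3, and without pup 3 alone it was 0.23. Within slide columns 1 to 4 the differences were 0.038, 0.39, 0.41 and 0.23. The dim Grik3 probe, which starts 5784 bases before the bright one, was well above background in 1 of 8 pups, so the value could not be checked on it.

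Grik5 lay at 2.78, 2.85, 2.75 and 2.89 in the controls and at 3.02, 2.89, 3.04 and 2.93 in the ischemia pups. All 4 ischemia pups were above all 4 controls, but ischemia pup 2 and control pup 4 were level at 2 decimals. The difference was 0.15 (SE 0.06, limma adjusted p = 0.436), or 1.11-fold with an interval from 1.01 to 1.23. An unadjusted p under 0.05 was kept in 10 of the 20 other settings, and leaving out single arrays gave differences from 0.13 to 0.18. Without ischemia pups 1 and 4 together Grik5 differed by 0.15 (limma adjusted p = 0.563) and no longer reached an unadjusted p under 0.05. Within slide columns 1 to 4 it differed by 0.24, 0.035, 0.29 and 0.040, and with the column as a block it no longer reached an unadjusted p under 0.05 (limma adjusted p = 0.496). No second Grik5 probe was on the array.

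The other high-affinity subunit gene, Grik4, lay the other way. Its levels were 2.03, 2.25, 1.91 and 2.36 in controls and 1.76, 1.85, 1.98 and 2.16 in ischemia pups. Ischemia pups 1 and 2 were below every control, and pups 3 and 4 lay within the control range. The difference of -0.20 (SE 0.12, limma adjusted p = 0.607) was not beyond the spread between pups. Grik1 differed by -0.09 (SE 0.12) and Grik2 by -0.13 (SE 0.17), and second probes of these genes gave -0.16 and -0.06. The kainate genes were not tested against one another.

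**Figure D4:**
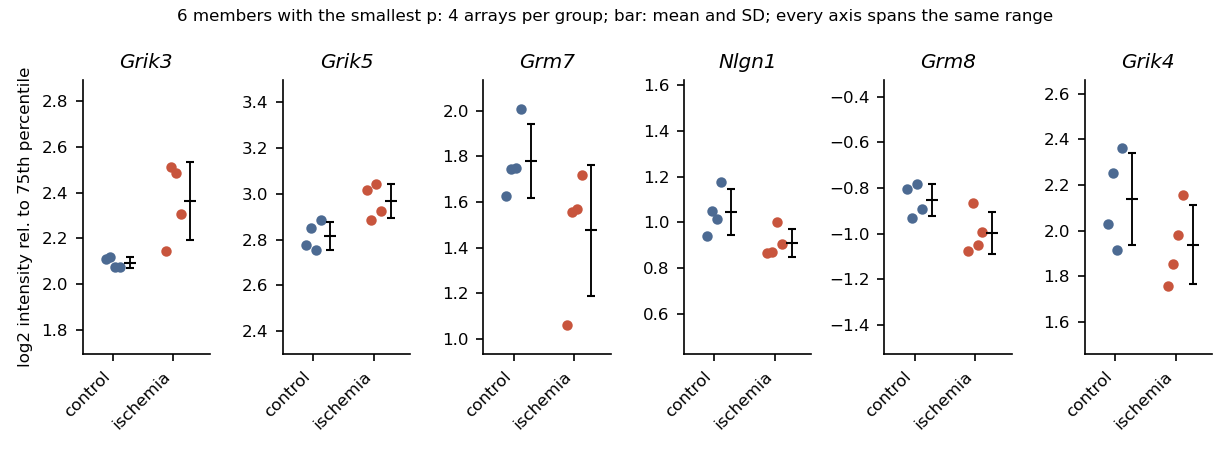
Levels on each array (log2 intensity relative to the array's 75th percentile) of the 6 genes with the smallest p, with the mean and SD of 4 pups a group and axes that all span the same range. Grik3 and Grik5 are higher in all 4 ischemia pups, while Grm8, Grm7, Nlgn1 and Grik4 have lower ischemia means and overlap with the controls.

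NMDA receptors, which admit calcium when glutamate arrives at an already depolarised membrane, need the obligatory subunit encoded by Grin1. None of the 6 genes passed, and 3 had a higher and 3 a lower mean in ischemia. Grin1 differed by 0.03 (SE 0.08) on its brighter probe and by 0.27 on a dim second one, neither past the threshold. Grin2b, the subunit gene that dominates before and around birth, was between 1.30 and 1.59 in controls and between 1.31 and 1.63 in ischemia pups, a difference of 0.02 (SE 0.09). Grin2a, whose product joins receptors later in postnatal life, was between -2.33 and -1.93 in controls and between -2.44 and -2.15 in ischemia pups, a difference of -0.12 (SE 0.11, limma adjusted p = 0.765). The ranges of the groups overlapped for both genes.

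Grin2c had the smallest p of the NMDA class and the lowest difference of all members. It lay at -2.28, -1.96, -3.0 and -2.44 in controls and at -2.56, -2.84, -3.17 and -2.36 in ischemia pups. The lowest pups of each group, control 3 and ischemia 3, differed by less than the controls did among themselves. The difference was -0.31 (SE 0.24, limma adjusted p = 0.694), with an interval from -0.87 to 0.24. Grin2d was well above background in only 1 control pup and 3 ischemia pups, and its difference of 0.16 (SE 0.31) is the least certain of the set. Grin3a, the gene of a subunit that lowers calcium entry, differed by -0.05 (SE 0.09).

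Grid1 encodes a delta receptor, which binds cerebellins at synapses. It lay at -1.88, -2.11, -1.83 and -1.92 in controls and at -1.95, -2.12, -1.63 and -1.59 in ischemia pups. Ischemia pups 3 and 4 were above the controls, and the lowest pups of both groups were nearly equal. The difference was 0.12 (SE 0.13, limma adjusted p = 0.800).

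Of the 6 metabotropic receptor genes 5 had a lower mean in ischemia, as did 57.0% of all genes. With limma 0 of the 6 passed, nor did any reach an unadjusted p under 0.05. Grm8, one of the presynaptic receptors that restrain glutamate release, lay at -0.81, -0.93, -0.78 and -0.89 in controls and at -1.07, -0.87, -1.05 and -0.99 in ischemia pups. Ischemia pups 1, 3 and 4 were below every control and pup 2 lay among them. The difference was -0.14 (SE 0.07, limma adjusted p = 0.494).

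Grm7, another receptor of presynaptic terminals, lay at 1.62, 1.74, 1.75 and 2.01 in controls and at 1.06, 1.55, 1.57 and 1.72 in ischemia pups. Ischemia pups 1, 2 and 3 were below every control, and pup 1 was lowest by a wide margin. The difference was -0.31 (SE 0.15, limma adjusted p = 0.498), or 0.809-fold with an interval from 0.641 to 1.02. Without ischemia pup 1 it was -0.17 (limma adjusted p = 0.549), so the value rests in large part on that pup, and without pups 1 and 4 together it was -0.22. An unadjusted p under 0.05 was reached in 4 of 20 other settings, among them the slide column as a block (limma adjusted p = 0.328). Within columns 1 to 4 the differences were -0.56, -0.19, -0.18 and -0.29, lower in 4 of 4.

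Grm2 and Grm3, the group of receptors found on axons and astrocytes, differed by -0.05 (SE 0.08) and -0.13 (SE 0.08). Grm5, the receptor gene that couples to Homer proteins and calcium release, differed by -0.04 (SE 0.10) on its brightest probe and by -0.17 and -0.33 on the other 2. All 3 Grm5 probes overlapped between the groups. Grm4 had the single higher mean of the class, 0.07 (SE 0.11), and its second probe was well above background in 2 control pups and in 0 of 4 ischemia pups.

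The 4 MAGUK genes encode the scaffolds SAP97 (Dlg1), PSD-93 (Dlg2), SAP102 (Dlg3) and PSD-95 (Dlg4), and had a median absolute difference of 0.00849 on the probes with the highest mean. Dlg3, the MAGUK of young synapses, lay between 3.97 and 4.21 in controls and between 4.05 and 4.09 in ischemia pups, a difference of 0.01 (SE 0.07). Dlg4, the MAGUK that prevails in mature synapses, lay between 1.73 and 1.93 in controls and between 1.61 and 1.97 in ischemia, a difference of -0.01 (SE 0.09, interval from -0.22 to 0.20). For both genes the 95% interval leaves room for changes below 1.2-fold only.

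Dlg2 had the smallest p of this class and lay at 1.73, 1.67, 2.04 and 1.78 in controls and at 1.49, 1.69, 1.92 and 1.80 in ischemia pups. The highest pup was control 3 and the lowest ischemia 1, and the remaining pups interleaved. The difference was -0.08 (SE 0.11, limma adjusted p = 0.848). Dlg1 differed by 0.01 (SE 0.09) on its brightest probe and by -0.09 and -0.16 on the other 2.

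Dlgap1 encodes a SAPAP protein, the link between MAGUKs and Shanks. It lay at 1.31, 1.26, 1.42 and 1.37 in controls and at 1.28, 1.40, 1.53 and 1.33 in ischemia pups. The groups overlapped apart from ischemia pup 3, and the difference was 0.05 (SE 0.07, limma adjusted p = 0.869). The other kept Dlgap1 probes gave 0.05 and -0.07, so the direction depends on the probe.

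The Shank genes encode the large scaffolds of the deeper layer of the postsynaptic density. Shank2 had the smallest p of the 3, at -0.08, -0.35, 0.17 and -0.41 in controls and -0.36, -0.35, -0.09 and -0.63 in ischemia pups. Only ischemia pup 4 was below all controls, and the controls themselves spanned a wider range than the difference of -0.19 (SE 0.16, limma adjusted p = 0.715). A second Shank2 probe gave -0.22. Shank1 differed by -0.06 (SE 0.11), and its other kept probes gave -0.05 and -0.16.

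Shank3 was measured by a probe with 10 spots on each array, which averages out spot noise, and by a dim second probe. The 10-spot probe lay at 0.25, 0.35, 0.65 and 0.61 in controls and at 0.63, 0.52, 0.43 and 0.59 in ischemia pups. The ischemia pups fell within the control range, with a difference of 0.08 (SE 0.10, limma adjusted p = 0.844). The second probe is shown because it went the other way; it holds a reading frame with no stop over its 20 codons.
Shank3, dim, chr15:89388668-89388727, plus strand: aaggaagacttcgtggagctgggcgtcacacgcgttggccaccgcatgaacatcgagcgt
It lay at -2.70, -2.69, -3.32 and -3.97 in controls and at -5.12, -4.49, -3.60 and -3.85 in ischemia pups, and was well above background in 3 control pups but in 0 of 4 ischemia pups. Control pup 4 lay within the range of the ischemia pups, so the groups overlapped. With each ischemia array set no lower than its faintest probe of any gene well above background, the ischemia mean was 1.64-fold below the control mean. This value has no interval, and that floor is not the detection limit of this probe. This probe did not meet the filter and was not tested in the main comparison, and the 2 Shank3 probes disagree.

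Homer proteins tie Shank and the metabotropic receptors together, and the short form Homer1a, made after neuronal activity, lacks the coiled coil that links the long forms. The array holds 5 Homer1 probes, of which 2 are shown because they lie at and just before the end of the short coding sequence. The first carries the last 20 codons of the frame that ends in the variant S transcript, the stop in capitals, and 25 bases separate it from the second, which lies upstream.
Homer1, variant S end, chr13:94126009-94126068, plus strand: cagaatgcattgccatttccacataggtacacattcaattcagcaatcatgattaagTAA
Homer1, upstream, chr13:94125924-94125983, plus strand: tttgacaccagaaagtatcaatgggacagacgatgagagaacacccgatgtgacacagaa
The variant S probe lay at -1.93, -1.87, -1.98 and -2.0 in controls and at -1.87, -1.90, -1.62 and -1.98 in ischemia pups. Ischemia pup 3 was the highest and the others lay among the controls, for a difference of 0.10 (interval from -0.09 to 0.30). The upstream probe gave 0.05.

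The long-form coding probe of Homer1 gave 0.00, the most upstream probe gave -0.06 and the brightest, at the downstream end, gave 0.02 (SE 0.08, limma adjusted p = 0.964). The groups overlapped for all 5 probes, and a shift between the short and long forms was not tested beyond these differences.

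**Figure D5:**
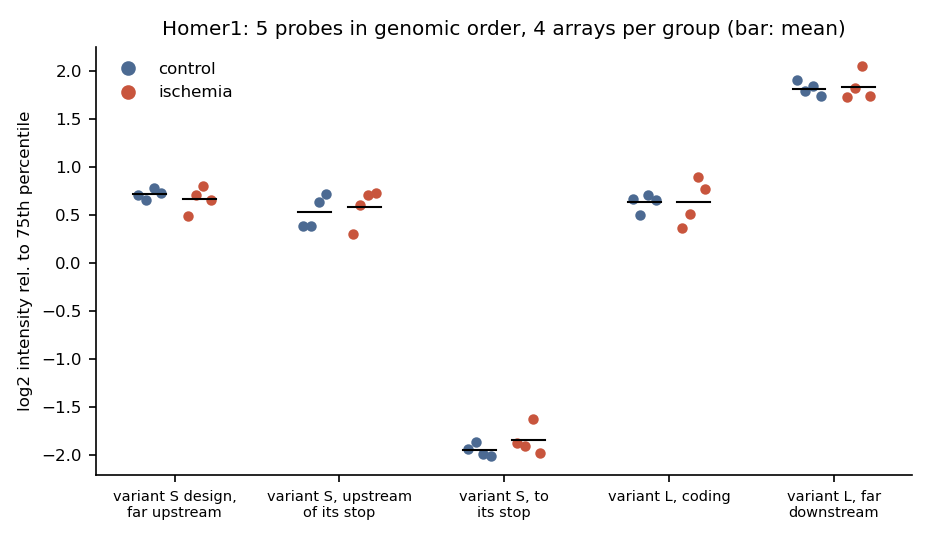
Levels of the 5 Homer1 probes in genomic order on the 8 arrays, in log2 intensity relative to the array's 75th percentile, with bars at the means of 4 pups a group. Control and ischemia points overlap at every probe, and the differences lie between -0.06 and 0.10.

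Homer2 had the smallest p of its class. Its brighter probe lay at 1.09, 0.98, 1.41 and 1.29 in controls and at 1.16, 0.90, 1.10 and 1.01 in ischemia pups. Only ischemia pup 2 was below every control, and the difference was -0.15 (SE 0.11, limma adjusted p = 0.666). A dim second probe, well above background in 2 control pups and in 4 ischemia pups, gave 0.59 (SE 0.34). It lay at -5.04 in control pup 1, between -3.72 and -3.38 in the other controls and between -3.46 and -3.04 in ischemia pups. Its difference thus rests in large part on control pup 1. The mean of both probes gave 0.22, so the direction for Homer2 depends on the probe. Homer3 differed by 0.08 (SE 0.07).

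Camk2a and Camk2b encode the alpha and beta subunits of CaMKII, of which beta is the earlier in forebrain development. Camk2a lay at -1.26, -1.05, -1.15 and -0.52 in controls and at -0.83, -0.92, -0.87 and -0.67 in ischemia pups. Control pup 4 was the highest of all, and the 4 ischemia pups lay between it and the other controls. The difference was 0.17 (SE 0.15, limma adjusted p = 0.744), and a second probe gave -0.09. Camk2b lay between 6.04 and 6.27 in controls and between 6.02 and 6.25 in ischemia, a difference of 0.04 (SE 0.08), and a second probe gave -0.07.

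Neuroligins are the postsynaptic partners of neurexins: Nlgn1 acts at excitatory and Nlgn2 at inhibitory synapses. Nlgn1 lay at 0.94, 1.05, 1.02 and 1.18 in controls and at 0.87, 0.87, 1.00 and 0.91 in ischemia pups. Ischemia pups 1, 2 and 4 were below every control, and pup 3 lay among them. The difference was -0.14 (SE 0.07, limma adjusted p = 0.519). Nlgn2 differed by 0.10 (SE 0.08) and Nlgn3 by -0.09 (SE 0.07), and all 3 kept Nlgn3 probes had a lower mean in ischemia.

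Of the 38 genes 25 had more than 1 probe and 19 had more than 1 above the filter. In 11 of those 19 the kept probes had 1 sign, as in Gria3, Grm5 and Shank2, and in 8 the signs differed, as in Camk2a and Homer2. The 3 members with the smallest p, Grik3, Grik5 and Grm8, each had a single kept probe.

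Balances between 4 pairs of genes whose balance is known to shift as the cortex matures were compared as the log2 ratio of the pair within each array, which does not depend on how arrays are scaled. Grin2a over Grin2b was -3.47, -3.62, -3.89 and -3.52 in controls and -3.68, -4.0, -3.86 and -3.50 in ischemia pups. Ischemia pup 2 was lowest and the rest interleaved, and the mean was lower by 0.14 in ischemia, that is -0.14 (exact two-sided permutation p = 0.343, n = 4 a group). Dlg4 over Dlg3 differed by -0.02 (exact permutation p = 0.886), Camk2a over Camk2b by 0.14 (exact permutation p = 0.4) and Gria1 over Gria2 by 0.18 (exact permutation p = 0.6). With 4 against 4 pups the smallest p such a test can give is 0.0286. Adjusted over the 4 pairs the p-values ran from 0.8 to 0.886, and none of these ratios differed beyond the spread between pups.

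The other genes of the excitatory synapse were taken from a list of 72 chosen for their roles. Of these 66 were measured and 0 passed with limma, with 30 higher and 36 lower in ischemia. At an unadjusted p under 0.05 there were 3 of 66, all higher, or 4.55%. Over all genes 10.9% reached it, 3.25% higher and 7.64% lower. The groups did not overlap for 2 of the 66, both higher, or 3.03% beside 2.27% of all genes. These counts are no result about the related genes as a set. The 3 genes were Nptx2, a secreted pentraxin that clusters AMPA receptors, Slitrk1, a synaptic adhesion protein, and Cacng3, an auxiliary subunit of AMPA receptors.

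Nptx2 lay at -2.52, -2.31, -2.25 and -2.15 in controls and at -1.92, -1.80, -1.85 and -2.13 in ischemia pups. All 4 ischemia pups were above all 4 controls, although ischemia pup 4 and control pup 4 were nearly level. The difference was 0.38 (SE 0.10, limma adjusted p = 0.282). A second Nptx2 probe was well above background in 0 control and 0 ischemia pups, so the value could not be checked on it. Slitrk1 lay at 1.75, 2.05, 2.08 and 1.99 in controls and at 2.17, 2.17, 2.41 and 2.20 in ischemia pups, also without overlap. It differed by 0.27 (SE 0.09, limma adjusted p = 0.368). A second, dimmer Slitrk1 probe gave 0.32 (SE 0.19), and its groups overlapped. Cacng3 overlapped and differed by 0.18 (SE 0.07, limma adjusted p = 0.445).

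The other AMPA receptor auxiliary and trafficking genes ranged from -0.18 for Cacng8 to 0.15 for Grip1, and the median absolute difference of all 16 measured was 0.0677. The kainate partners Neto1 and Neto2 differed by -0.05 and 0.18, and the 3 cerebellin genes that supply ligands of delta receptors by -0.12 to -0.04. Of 17 scaffold and signalling genes 6 were higher and 11 lower. Among 9 genes of glutamate transport and metabolism, Slc1a3 and Slc1a2, the glial transporters that clear glutamate, differed by 0.18 (SE 0.09) and 0.20 (SE 0.12), and the neuronal vesicular transporter gene Slc17a7 by -0.02 (SE 0.15). None of these passed.

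The cells that express the members were compared through marker genes. Of 7 excitatory neuron markers 5 had a higher mean in ischemia, and 1 of them, Fezf2, did not overlap and differed by 0.23 (SE 0.08). All 5 pan-neuronal markers had a lower mean, by 0.02 to 0.11, and 1 of them, Tubb3, did not overlap and differed by -0.11. Over all genes 43.0% had a higher and 57.0% a lower mean, while 2.27% lay wholly higher and 4.28% wholly lower. The summed linear level of the excitatory neuron markers ran from 92.7 to 99.5 in controls and from 88.9 to 112.5 in ischemia pups, and that of the pan-neuronal markers from 491.9 to 528.6 and from 461.1 to 502.4. None of the marker genes passed over all genes, and their part in the differences of Grik3 and Grik5 was not tested.

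Among the other cell types, an unadjusted p under 0.05, which 10.9% of all genes had, was reached by 2 of 5 radial glia markers. Both were lower (Fabp7 by -0.22 and Nes by -0.23), while Hes5 differed by 0.11 and Pax6 by 0.07. Of 5 microglia markers 3 had a higher mean, and 2 of these reached it (C1qa by 0.42 and Ctss by 0.34). Aif1 differed by 0.24, while Cx3cr1 differed by -0.07 and Csf1r by -0.03. The groups did not overlap for C1qa and Aif1, where 2.27% of all genes lay wholly higher. Of 6 astrocyte markers 4 had a higher mean, and 1 of these reached an unadjusted p under 0.05 (Aldoc, 0.26). Slc1a2 differed by 0.20, Slc1a3 by 0.18 and Gfap by 0.10, while Aqp4 differed by -0.14 and Aldh1l1 by -0.06. Of 5 endothelial markers 2 reached it, in opposite directions (Kdr -0.31 and Slco1a4 1.09). Of 3 measured erythroid genes 2 reached it, both lower (Hba-a2 by -0.54 and Hbb-b2 by -0.57), and of 6 meningeal genes 2, both higher. For interneurons 3 of 5 markers had a higher mean and for the oligodendrocyte lineage 5 of 5, with 0 at that level by limma in either list and 0 passing. The part of these cells in the members' values was not tested.

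For the choroid plexus list, of which 3 of 5 genes were measured, the summed level was 0.458 to 0.543 in controls and 0.411 to 111.7 in ischemia pups, the top value being pup 4. For the 6 meningeal genes it was 2.73 to 3.79 and 2.95 to 14.3. Markers of the neighbouring striatum, hippocampus and thalamus had overlapping sums in both groups. In ischemia pup 4, with the choroid plexus transcripts, the median deviation of the 38 genes from their own mean was 0.00, and 3 genes had their highest and 2 their lowest value there. Ischemia pup 1 held the lowest value of 13 members, with a median deviation of -0.06, and control pup 3 the highest of 10, with 0.05. The array of ischemia pup 1 also had the lowest share of spots well above background, 47.6%. Its negative control spots had the highest mean signal, 8.95 intensity units, beside 5.59 to 7.29 on the rest. Whether its low values come from the pup or the array was not tested.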

How the data were processed

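The authors extracted their scans in Agilent Feature Extraction 10.7.3.1, per the file headers. Total RNA (50 ng) was labelled with Cy3, per the labels' protocols. The deposited values are linear intensities: the background-corrected processed signal was used here, while 1 alternative started from the uncorrected mean signal and its local background. The deposited flags mark spots well above background, saturated or outlying, and 0 spots were saturated. The authors' value table holds a ratio, found here to be the processed signal over 1 constant per array (within 0.00500% for values above 1, column medians 0.0836 to 0.1003). What the constant means is not given in the sources, and the table served only as an alternative.

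Control and outlier-flagged spots were left out, spots of a probe were averaged as log2, and each array was scaled to its 75th percentile. The filter kept 27131 probes, and the brightest by mean over all arrays stood for its gene. Symbols were updated through RefSeq names (GRCm38.p6): 27171 probes matched by accession, 3572 by current and 564 by older symbol, and 24300 kept the file's name. Members were taken by the file's own name, and probe coordinates and sequences are those of the files (mm9). Groups were compared with limma 3.58.1 (lmFit, eBayes) in R 4.3.3, two-sided, with Benjamini-Hochberg adjustment and a threshold of 0.05. The procedure was tested on simulated data. Ratios of pairs were tested over all 70 assignments of the labels. The number of arrays limits the precision.

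The members, pairs, marker lists and related genes were chosen with earlier results of these data known. Values on every array are printed for members with an unadjusted p under 0.05 and for the member with the smallest p in each class, and other members printed so (Grik4, Grm7, Shank3 and the second probes) were chosen after their values were seen. Of the related genes, those with an unadjusted p under 0.05 are named, and the others named were chosen after their values were seen. Alternatives covered background correction, scaling, filters, probe rules, variance models, a block, the value table and arrays left out.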

Additional observations from a re-analysis of the deposited data

Results flagged for a closer look

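In 9 of 154 sets of 4 arrays (73 member probes and 4 pair ratios, each in both groups), 1 pup lay far from the other 3 by Dixon's ratio of its gap to the group's range being above the 95% critical value. Chance gives about 1 in 20, or 7.7 of 154, so the number of such sets is near what chance gives.

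The Grm5 probe with the lowest level had 1 high pup in both groups: control pup 3 at 0.23 against -0.82 to -0.70 (ratio 0.892) and ischemia pup 3 at -0.32 against -1.05 to -0.98 (ratio 0.911). Both arrays lay in slide column 3, and the part of the column in these values was not tested. The dimmest Camk2a probe was bright in 1 of 8 pups, ischemia pup 3, at -0.83 against -5.77 to -5.19 in its group (ratio 0.882), while the brighter Camk2a probes showed no such pup. The dim Nlgn1 probe was likewise high in ischemia pup 4 alone, at -3.31 against -6.12 to -5.66 (ratio 0.838).

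The dim Nlgn3 probe was high in control pup 2, at -2.53 against -3.23 to -3.15 (ratio 0.887). The brighter Grin1 probe was low in control pup 1, at 0.56 against 0.79 to 0.84 (ratio 0.846). A Shank1 probe not well above background on any array was low in control pup 3, at -5.97 (ratio 0.905). Another Shank1 probe was low in ischemia pup 4, at -2.49 against -2.20 to -2.14 (ratio 0.837), and the dim Shank2 probe was low in ischemia pup 3, at -3.54 against -3.16 to -3.08 (ratio 0.833). None of the 9 concerns Grik3, Grik5, Grm7 or Grm8.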

How the results depend on the processing

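In 20 other settings 0 of the 38 members and 0 of the measured related genes passed, and the lowest adjusted p of any member was 0.224. Over all genes 20 passed with a trended and robust variance (2 higher, 18 lower), and 0 passed with normexp, quantile normalization, well above background on all arrays, no filter, every probe a feature, the replicate block or without ischemia 1 and 4 together, and 0 to 1 with single arrays left out. Same-numbered pups did not deviate together in every pair (correlations 0.08, -0.06, 0.29 and 0.39, the best match in 2 of 4), although they also share a slide column. With the replicate block, which is also the column, 0 members passed, Grm7 (limma adjusted p = 0.328) and Shank2 came to an unadjusted p under 0.05, and Grik5 no longer reached it (limma adjusted p = 0.496). Members at an unadjusted p under 0.05 numbered 1 with no filter, 1 with array weights and 1 without ischemia 1 and 4 together, and 1 to 4 with single arrays left out. Of 759 recomputed member differences 42 changed sign, 29 of them with 1 array left out, over 15 members. The rest changed sign under other settings. With the mean of probes these were Gria4 -0.0052, Dlg1 -0.081, Homer2 0.22 and Camk2b -0.018. With array weights they were Gria4 -0.0040, Dlg1 -0.014 and Homer1 -0.0053. Without ischemia 1 and 4 together they were Grik2 0.070, Grin1 -0.012 and Shank1 0.019. With normexp they were Grin2d -0.013, Grm5 0.018 and Dlg4 0.046. With single arrays left out, the members that changed sign ranged as follows: Gria1 -0.0061 to 0.11, Gria2 -0.34 to 0.0027, Gria4 -0.027 to 0.046, Grin1 -0.030 to 0.060, Grin2b -0.043 to 0.085, Grin2d -0.11 to 0.40, Grin3a -0.12 to 0.024, Grm2 -0.084 to 0.010, Grm5 -0.10 to 0.027, Dlg1 -0.055 to 0.058, Dlg3 -0.026 to 0.056, Dlg4 -0.065 to 0.053, Dlgap1 -0.0045 to 0.080, Shank1 -0.12 to 0.018 and Homer1 -0.053 to 0.053. The ischemia minus control difference of the log2 ratio of Dlg4 over Dlg3 was 0.013 with normexp. That of Camk2a over Camk2b was -0.0050 without ischemia 1 and 4. With single arrays left out this difference ran from -0.22 to -0.057 for Grin2a over Grin2b and from -0.062 to 0.051 for Dlg4 over Dlg3. It ran from 0.063 to 0.24 for Camk2a over Camk2b and from 0.022 to 0.46 for Gria1 over Gria2. The cause of these changes was not tested.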
